A study of Homo sapiens with 7 samples.

Results

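The 10 genes described here, *NDRG4*, *BMP3*, *VIM*, *SEPTIN9*, *TFPI2*, *SDC2*, *TAC1*, *EYA4*, *TIMP3* and *CDKN2A*, become hypermethylated at their promoters in colorectal cancer and serve as DNA methylation markers of the disease. They were taken as a named list, at their hg38 positions in GENCODE release 44, out of 20033 protein-coding genes on the chromosomes and contigs that hold a domain. The list was chosen with earlier results of these data known, so its counts are not independent of these data. The study mapped histone H3 lysine 9 trimethylation (H3K9me3) and lysine 27 trimethylation (H3K27me3) by chromatin immunoprecipitation and sequencing. The cells were HCT116, an established line of colorectal carcinoma epithelial cells, carrying a doxycycline-inducible shRNA against *UHRF1*, the gene of an E3 ubiquitin ligase needed to maintain DNA methylation. Every group had gone without doxycycline for 14 days, so the shRNA was present in all of them and induced in none. Clone 3 gave 2 samples of H3K9me3, 2 of H3K27me3 and 1 input, and Clone 6 gave 2 samples of H3K27me3. Both are clonal lines of a single parent line, so a difference between them is a difference between 2 clones and not between conditions.

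The measurements are domains, stretches of whole kb that a domain caller found enriched for a mark over input. There are 5 domain sets, namely Clone 3 H3K9me3 (567 domains, median length 140 kb), Clone 3 H3K27me3 (2600 domains, 58 kb), Clone 6 H3K27me3 (1959 domains, 78 kb) and the clone-shared sets of H3K9me3 (478 domains, 148 kb) and H3K27me3 (1844 domains, 68 kb). The clone-shared H3K9me3 set also draws on Clone 6, whose own H3K9me3 set was not analysed here. Each set was already merged over its samples, so the values below have no replicate error and no test was made. The clone-shared H3K27me3 set is built from the 2 clone sets and adds no independent measurement, while the clone-shared H3K9me3 set is the only one here that carries H3K9me3 of Clone 6. The study set a minimum depth for its libraries, but the depth behind each domain cannot be read from these sets. A gene outside a domain is one where no broad domain was called, and a narrow peak of the mark at its promoter was not measured. DNA methylation and expression of the genes were not measured in these data. The study profiled DNA methylation of both clones separately, and those profiles were not used here.

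H3K27me3 is placed by Polycomb repressive complex 2, and in stem cells it covers the CpG islands of silent developmental genes. Many genes that gain promoter methylation in colorectal tumours carry that mark in normal cells. H3K9me3 is the mark of constitutive heterochromatin, bound by HP1 proteins and found over repeats, zinc finger gene clusters and gene-poor regions. Both marks can cover domains far longer than a gene, and the question asked here is in which of these domains, if any, the marker genes lie.

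The start site of a gene was the 5′ end of its gene record. The 250 bases just upstream of that start site are shown for 2 genes that lay in H3K27me3 domains of both clones (*TAC1* and *TIMP3*). They are also shown for *EYA4*, whose start site lay just outside the edge of a Clone 3 domain, and for *VIM*, which lay outside the domains of all 5 sets. These windows hold no annotated exon. Each runs 5′ to 3′ on the strand of the gene, with every CpG dinucleotide (the letters CG, which read the same on both strands) in capitals:
TAC1, chr7:97731834-97732083, plus strand: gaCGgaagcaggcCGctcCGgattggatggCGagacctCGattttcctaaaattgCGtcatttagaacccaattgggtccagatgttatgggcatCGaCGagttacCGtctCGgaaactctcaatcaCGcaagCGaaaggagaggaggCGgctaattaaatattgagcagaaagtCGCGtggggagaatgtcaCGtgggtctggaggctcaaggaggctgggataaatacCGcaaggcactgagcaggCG
TIMP3, chr22:32801455-32801704, plus strand: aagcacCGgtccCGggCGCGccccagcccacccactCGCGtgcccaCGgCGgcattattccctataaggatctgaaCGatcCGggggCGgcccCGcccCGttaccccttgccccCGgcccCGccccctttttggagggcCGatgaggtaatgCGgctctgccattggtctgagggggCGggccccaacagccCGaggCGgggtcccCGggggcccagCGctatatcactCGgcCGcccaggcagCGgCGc
EYA4, chr6:133240264-133240513, plus strand: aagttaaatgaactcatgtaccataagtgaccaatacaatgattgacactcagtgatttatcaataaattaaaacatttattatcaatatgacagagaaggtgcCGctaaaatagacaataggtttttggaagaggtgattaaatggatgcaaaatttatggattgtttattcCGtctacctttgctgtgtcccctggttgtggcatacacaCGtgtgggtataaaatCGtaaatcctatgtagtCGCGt
VIM, chr10:17227991-17228240, plus strand: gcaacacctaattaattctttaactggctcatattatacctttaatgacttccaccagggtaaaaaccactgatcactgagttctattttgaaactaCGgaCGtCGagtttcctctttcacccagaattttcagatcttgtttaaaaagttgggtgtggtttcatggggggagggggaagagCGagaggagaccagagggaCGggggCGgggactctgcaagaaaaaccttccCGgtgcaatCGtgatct
The window holds 18 CpGs at *TAC1*, 26 at *TIMP3*, 6 at *EYA4* and 8 at *VIM*. Over all genes the same window held a median of 14 CpGs, and 96.4% of genes had at least 1. Genes with start sites in clone-shared H3K27me3 domains had a median of 4. Among the windows not shown, *BMP3* and *SDC2*, inside the domains of both clones, had 5 and 18. Outside the domains *CDKN2A* had 26 like *TIMP3*, *TFPI2* had 20, and *NDRG4* and *SEPTIN9* had 9 each. The counts thus go both ways, and no comparison of genes inside and outside the domains is drawn from them.

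Of the 10 start sites, 4 lay in H3K27me3 domains of Clone 3, against a background of 6.44% of all protein-coding genes. The same 4 genes, *BMP3*, *SDC2*, *TAC1* and *TIMP3*, lay in H3K27me3 domains of Clone 6, where the background was 7.97%. They were also the 4 of 10 in the clone-shared H3K27me3 set, with a background of 5.32%. None of the 10 lay in an H3K9me3 domain, with backgrounds of 3.35% in Clone 3 and 3.24% in the clone-shared set. With shares this low, 0 of 10 is close to what the share of all genes gives and is no result about the markers. A gene with a CpG-rich promoter (an observed over expected CpG ratio of at least 0.6 and a GC content of at least 50% within 500 bases of the start site) is a closer match to the markers. Of such genes 3.61% lay in H3K27me3 domains of Clone 3, 4.86% in those of Clone 6 and 2.97% in the clone-shared set. All 4 marker genes in the domains had such promoters. Because the list was chosen with earlier results of these data known, its counts beside these shares are a description only.

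Gene bodies gave nearly the same picture. In Clone 3, 5 of the 10 bodies touched an H3K27me3 domain (background 8.68%), since *EYA4* joined the 4 genes above. In Clone 6 it was 4 of 10 (background 10.3%), and in the clone-shared set 4 of 10 (background 7.19%). No body touched an H3K9me3 domain of Clone 3 (background 3.93%) or of the clone-shared set (background 3.75%). The bodies of *BMP3*, *SDC2*, *TAC1* and *TIMP3* lay in the H3K27me3 domains over 100% of their length in both clones, that of *EYA4* over 68.2% in Clone 3 and 0% in Clone 6.

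**Figure D1:**
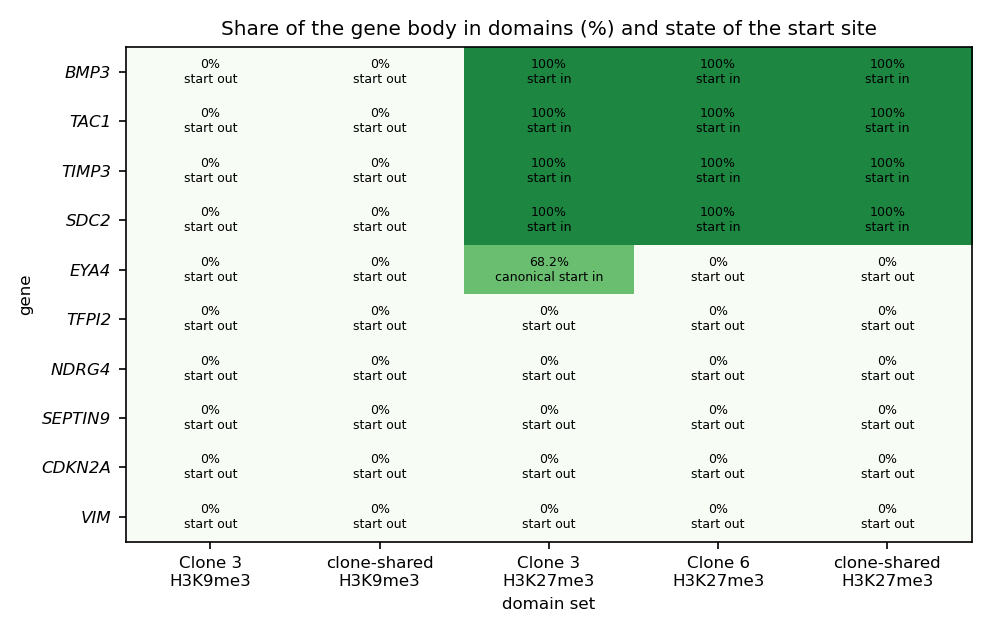
State of the 10 genes in each of the 5 domain sets. Rows are genes, columns are sets, the colour and the percentage give the share of the gene body that lies in domains, and the words give whether the start site lies in a domain ("canonical start in" marks a gene whose canonical transcript starts in the domain while its gene record starts outside). BMP3, TAC1, TIMP3 and SDC2 are at 100% in all 3 H3K27me3 sets, EYA4 is at 68.2% in Clone 3 alone, and the H3K9me3 columns are at 0% throughout.

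*BMP3* encodes a secreted ligand of the TGF-β family. The gene (ENSG00000152785.8) lies at chr4:81030708-81057627 on the plus strand. In Clone 3 it sat in an H3K27me3 domain of 219 kb, from 80861001 to 81080000, and was the only coding gene starting in it. In Clone 6 the domain was 864 kb long, from 80216001 to 81080000, and also held the start sites of *FGF5* and *CFAP299*. The right edge was at the same kb in both clones and the left edge differed by 645 kb. Much of the added Clone 6 length was also marked in Clone 3, but in pieces: 4 Clone 3 domains covered 88.0% of the Clone 6 domain. The start site was 49.3 kb inside the nearer edge in both clones.

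*TAC1* encodes the precursor of the neuropeptides substance P and neurokinin A. The gene (ENSG00000006128.12) lies at chr7:97732084-97740472 on the plus strand. Its H3K27me3 domain was 161 kb in Clone 3 (97620001 to 97781000) and 660 kb in Clone 6 (97190001 to 97850000), with edges that differed by 430 kb on the left and 69 kb on the right. *TAC1* was the only coding gene starting in either domain. Again the Clone 6 domain was cut up in Clone 3, where 6 domains covered 92.6% of it.

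*TIMP3*, a matrix-bound inhibitor of metalloproteinases (ENSG00000100234.12), lies at chr22:32801705-32863041 on the plus strand and overlaps *SYN3*, a synapsin gene on the opposite strand. The domain ran from 32780001 to 33077000 in Clone 3 (297 kb) and from 32520001 to 33062000 in Clone 6 (542 kb). *SYN3* started in the same domain in both clones, so the domain cannot be assigned to either gene. The start site of *TIMP3* was 21.7 kb from the left edge in Clone 3 and 260 kb from the nearer edge in Clone 6. Of the Clone 6 domain, 62.9% was covered by 3 Clone 3 domains. An H3K9me3 domain of 1702 kb (33088001 to 34790000) began 11 kb past the end of the Clone 3 domain and 26 kb past that of Clone 6. The H3K27me3 domain around *TIMP3* thus ended close to an H3K9me3 domain. How often H3K27me3 domains end this near to H3K9me3 was not counted. The *TIMP3* start site itself was 286 kb from the first base of the H3K9me3 domain, the shortest such distance of the 10 genes.

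*SDC2* encodes syndecan-2, a heparan sulfate proteoglycan of the cell surface. The gene (ENSG00000169439.12) lies at chr8:96493813-96611790 on the plus strand. Its domain was 1210 kb in Clone 3 (96343001 to 97553000) and 1218 kb in Clone 6 (96342001 to 97560000). The edges differed by 1 kb and 7 kb, the closest match of the 4. It was longer than 99.2% of the domains of Clone 3 and 98.7% of those of Clone 6, and *CPQ* and *TSPYL5* started in it too. All 5 coding transcript starts of *SDC2* lay within it.

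The 4 genes with H3K27me3 domains in both clones therefore lay in domains of unequal size, from 161 to 1210 kb in Clone 3 and from 542 to 1218 kb in Clone 6. The map of the domains around each start site shows that for *BMP3*, *TAC1* and *TIMP3* the Clone 6 domain was unbroken where Clone 3 had several shorter ones.

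**Figure D2:**
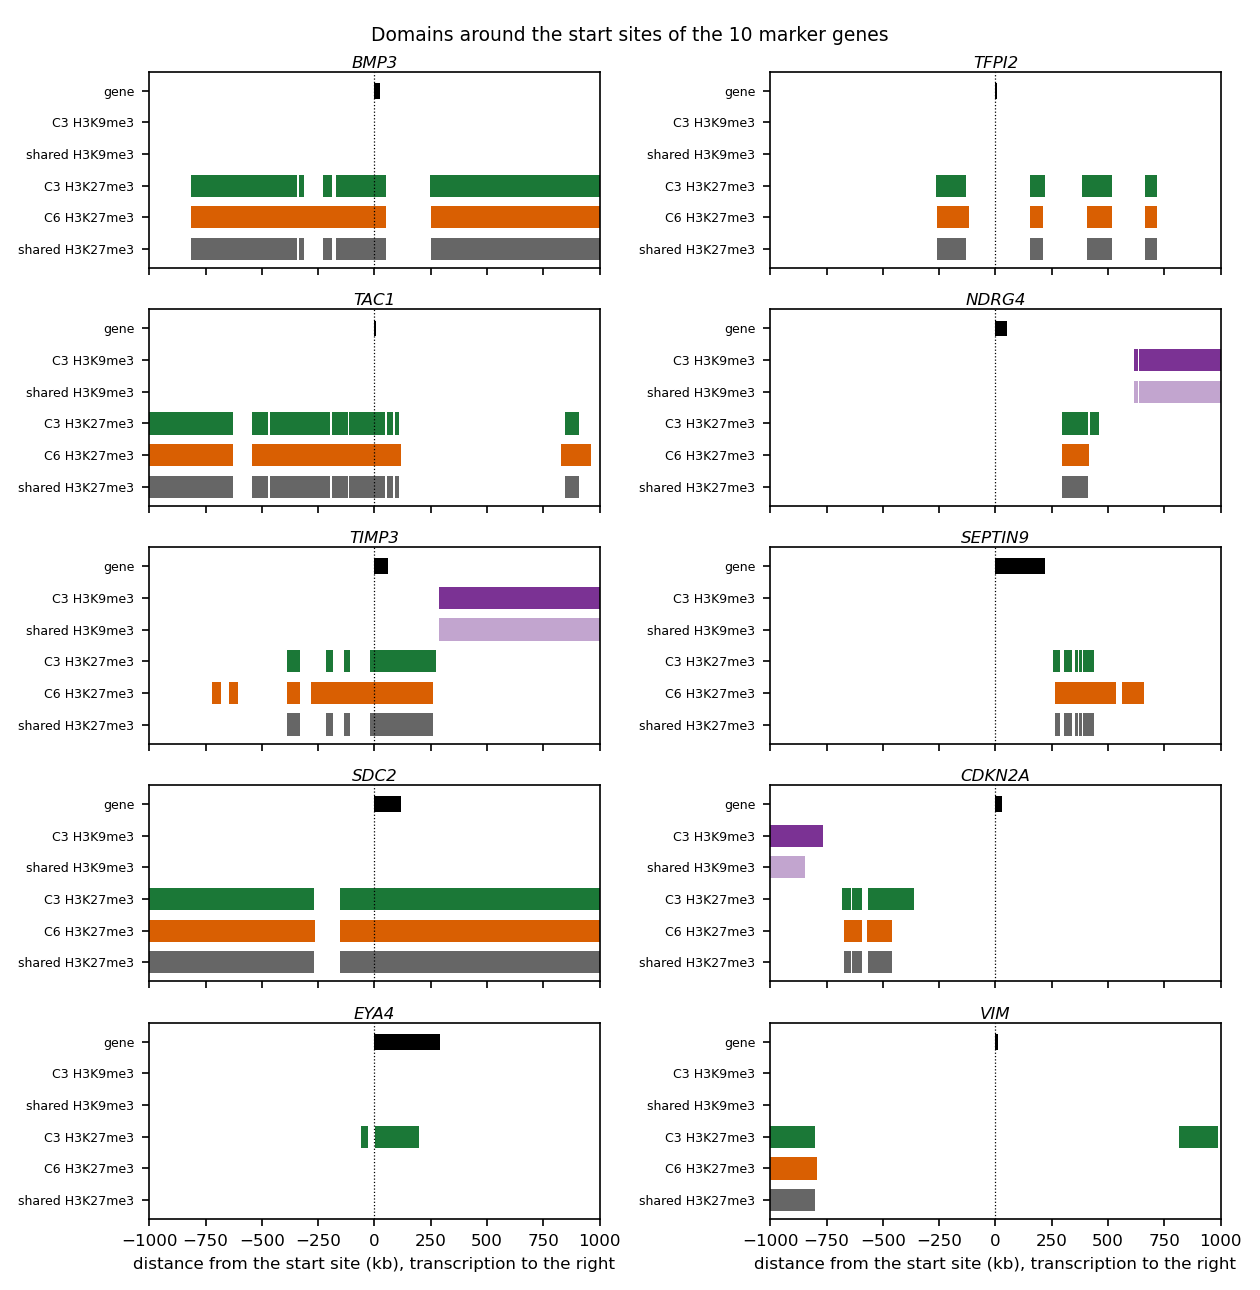
Domains around the 10 marker genes. The horizontal axis is the distance from the start site in kb, with transcription to the right and the gene in black. The rows below it give the domains of Clone 3 H3K9me3, clone-shared H3K9me3, Clone 3 H3K27me3, Clone 6 H3K27me3 and clone-shared H3K27me3, and a gap means that no domain was called. BMP3, TAC1, TIMP3 and SDC2 lie inside H3K27me3 domains of both clones, and TIMP3 has an H3K9me3 domain 286 kb downstream.

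*EYA4* was the only one of the 10 whose gene body and canonical start differed between the clones. It encodes a transcriptional coactivator with phosphatase activity that acts in development of the ear, eye and muscle, and lies at chr6:133240514-133532128 on the plus strand (ENSG00000112319.21). The gene record starts 0.486 kb outside a Clone 3 H3K27me3 domain of 199 kb (133241001 to 133440000). The canonical transcript starts at 133241357, which is 0.356 kb inside it, and 6 of the 7 coding transcript starts lay within. The domain covered 3 of the 20 canonical exons. Because domain edges are whole kb, both offsets are shorter than the 1 kb step of those edges. In Clone 6 no H3K27me3 domain lay within 7471 kb of *EYA4*, and the clone-shared set gave the same distance. In the 10 Mb around the start site Clone 3 had 2 domains with 0.233 Mb in all and Clone 6 had 0. Of all genes, 5.64% lay at least 5 Mb from the nearest Clone 6 domain.

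By the gene-record start the clones gave the same state for 10 of the 10 genes, 4 inside in both and 6 outside in both. By the canonical start they gave the same state for 9 of 10, and *EYA4* was the 1 gene inside in a single clone, against a background of 3.77% of all genes. Over all protein-coding genes 96.2% had the same state in both clones, with 1066 inside in both, 224 inside in Clone 3 alone and 531 in Clone 6 alone. The agreement over the markers is thus near that of genes in general, most of which lay outside in both. For H3K9me3 all 10 genes were outside in the Clone 3 set and in the clone-shared set.

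The other 5 genes lay outside the domains of all 5 sets. *TFPI2*, an inhibitor of serine proteases (ENSG00000105825.14; chr7:93885396-93890753, minus strand), was the closest by its start site, with H3K27me3 domains 130 kb upstream in Clone 3 and 115 kb in Clone 6. The domains near *TFPI2* were 133 and 146 kb long, and their edges differed by 15 and 2 kb. By the gene body *SEPTIN9* was closer to a domain than *TFPI2*. *GNGT1*, on the opposite strand, overlaps the *TFPI2* start site.

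*SEPTIN9* encodes a GTP-binding protein of the cytoskeleton and is the gene of a blood test for colorectal cancer (ENSG00000184640.20; chr17:77280569-77500596, plus strand). The nearest H3K27me3 domain began 255 kb downstream of its start in Clone 3 and 265 kb in Clone 6, which is 35.4 and 45.4 kb past the end of the gene. None of its 28 coding transcript starts lay in a domain. The Clone 3 domain was 33 kb long and was 1 of 5 that overlapped the 268 kb domain of Clone 6, of which they covered 52.6%.

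*NDRG4*, a gene used with *BMP3* in a stool DNA test (ENSG00000103034.15; chr16:58462846-58513628, plus strand), lay 297 kb from H3K27me3 in Clone 3 and 295 kb in Clone 6. It also had 28 coding transcript starts, with 0 in a domain, although they spread over the gene and the canonical one is 37.3 kb from the gene-record start. The nearest domain was 20 kb in Clone 3 and 122 kb in Clone 6. Where domains under 100 kb are left out, the Clone 3 distance becomes 2183 kb for *NDRG4* and 1869 kb for *SEPTIN9*, so the Clone 3 distances rest on short domains. The Clone 6 distances stay at 295 kb for *NDRG4* and 265 kb for *SEPTIN9*. At *NDRG4*, 2 Clone 3 domains covered 92.6% of the Clone 6 domain.

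*CDKN2A* encodes the cell cycle inhibitors p16INK4a and p14ARF from separate first exons (ENSG00000147889.18; chr9:21967752-21995301, minus strand). The H3K27me3 domains upstream of it were 360 kb away in Clone 3 and 461 kb in Clone 6. From the canonical start at 21974857, which is 20.4 kb from the gene-record start, the distances were 380 and 481 kb. None of the 10 coding transcript starts lay in a domain. Its neighbour *CDKN2B* was also outside, at 346 and 447 kb.

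*VIM*, the mesenchymal intermediate filament gene (ENSG00000026025.16; chr10:17228241-17237593, plus strand), was farthest from H3K27me3 of these 5, at 803 kb in Clone 3 and 792 kb in Clone 6. The domain was 504 kb in Clone 3 and 514 kb in Clone 6, and 503 kb were common to both. No part of the 1000 kb centred on its start site lay in an H3K27me3 domain of either clone. The 4 genes inside the domains had between 41.1% (*TIMP3*) and 88.4% (*SDC2*) of that window covered in Clone 3. In Clone 6 the share was higher for each of them, up to 88.6% for *SDC2*.

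Distances to H3K9me3 ran over a far wider range. *TIMP3* at 286 kb, *NDRG4* at 615 kb and *CDKN2A* at 767 kb were nearest to a Clone 3 H3K9me3 domain. *VIM* followed at 1624 kb, *SDC2* at 4037 kb and *BMP3* at 8763 kb. *TFPI2* at 21771 kb, *SEPTIN9* at 22545 kb, *TAC1* at 25612 kb and *EYA4* at 29799 kb were the farthest. In the clone-shared set the largest shift was that of *SDC2*, to 11901 kb. *CDKN2A* moved to 847 kb, *VIM* to 1670 kb, *BMP3* to 8811 kb and *EYA4* to 29991 kb, and the others kept their distance. The median over all genes was 3232 kb in the Clone 3 set, against 6400 kb over the 10 markers. For H3K27me3 the medians were 706 kb over all genes and 65.4 kb over the markers in Clone 3, and 500 and 190 kb in Clone 6. With 4 of the 10 markers at 0, the Clone 3 median falls between *EYA4* (0.486 kb) and *TFPI2* (130 kb). That of Clone 6 falls between *TFPI2* (115 kb) and *SEPTIN9* (265 kb). The marker medians thus largely restate the 4 genes inside and the state of *EYA4*.

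**Figure D3:**
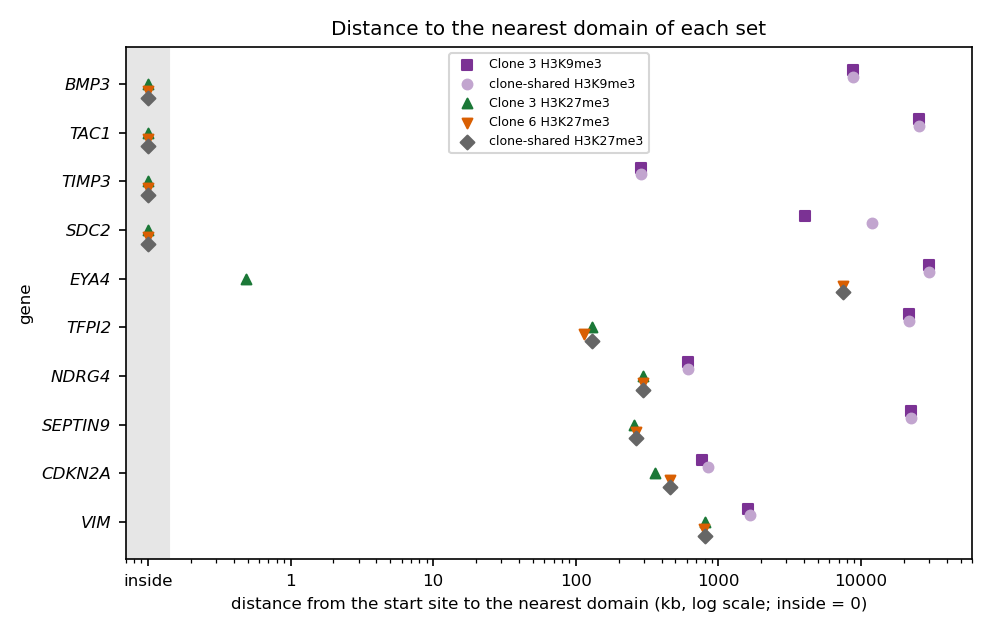
Distance from the start site of each marker gene to the nearest domain of each set, in kb on a log scale. The shaded column on the left holds start sites inside a domain. BMP3, TAC1, TIMP3 and SDC2 are inside H3K27me3 in both clones, EYA4 is at 0.486 kb in Clone 3 and 7471 kb in Clone 6, and H3K9me3 lies between 286 and 29991 kb away.

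The promoters of the marker genes varied in CpG number around that of genes in general. Within 500 bases of the start site *TIMP3* had 90 CpGs, *CDKN2A* 87, *SDC2* 81, *BMP3* and *SEPTIN9* 65 each, *TAC1* and *TFPI2* 64 each, *VIM* 55, *NDRG4* 37 and *EYA4* 34. All genes had a median of 58, and 8 of the 10 markers were CpG-rich against 57.9% of all genes. At the canonical start *EYA4* had 99 CpGs and *SEPTIN9* 104, which made 9 of the 10 CpG-rich, and *NDRG4* stayed below the limit with 32. At canonical starts 64.8% of all genes were CpG-rich and their median was 66, above the counts of *BMP3*, *TAC1*, *TFPI2* and *VIM*. These counts depend on which start site is used, and for *EYA4* the denser start is the one inside the Clone 3 domain.

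The 4 promoters inside the domains had more CpGs than the median gene there. Genes with start sites in H3K27me3 domains had a median of 17 CpGs in Clone 3 and 24 in Clone 6, and 32.5% and 35.3% of them were CpG-rich. *BMP3*, *TAC1*, *SDC2* and *TIMP3* had between 64 and 90. The Clone 3 domain held 5.72 CpGs per kb around *BMP3*, 7.05 around *SDC2* and 7.06 around *TAC1*, below the median of 7.46 over all Clone 3 H3K27me3 domains. That of *TIMP3* held 11.8, more than 86.3% of those domains. In each of the 4 the start site was far denser in CpGs than the domain around it. A CpG at least 20 bp from its nearest neighbour, the low-density class of the study, made up 6 of 65 at *BMP3*, 2 of 64 at *TAC1*, 5 of 81 at *SDC2* and 4 of 90 at *TIMP3*. At the start sites outside the domains they made up 5 of 65 at *SEPTIN9*, 5 of 55 at *VIM*, 6 of 64 at *TFPI2*, 6 of 87 at *CDKN2A*, 8 of 37 at *NDRG4* and 9 of 34 at *EYA4*, the last 2 being the promoters that are not CpG-rich.

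**Figure D4:**
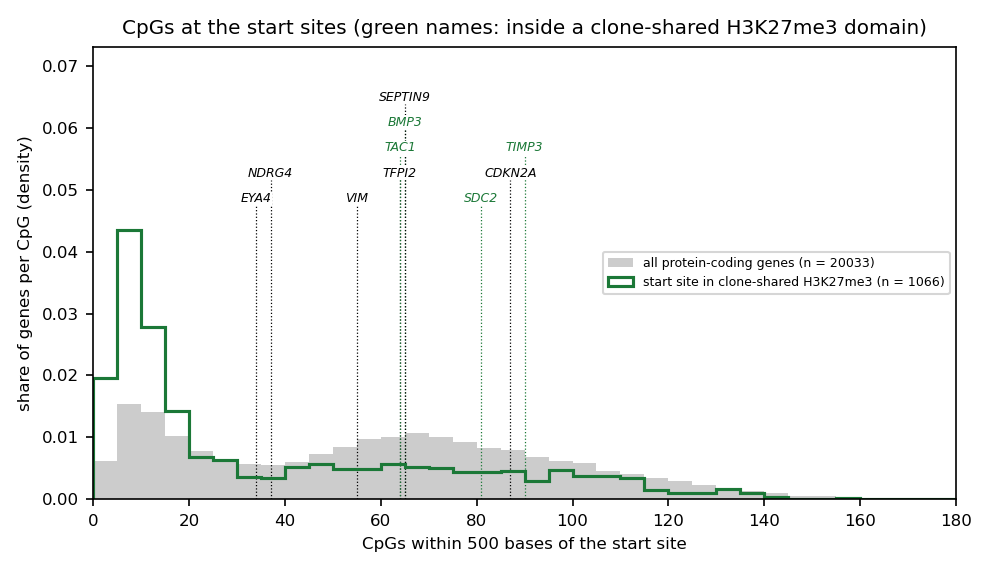
CpGs within 500 bases of the start site. The horizontal axis is the number of CpGs and the vertical axis the density of genes, in grey for all 20033 protein-coding genes and in green outline for the 1066 genes with start sites in clone-shared H3K27me3 domains. The dotted lines mark the 10 marker genes, with green names for those inside the domains. SDC2, TAC1, BMP3 and TIMP3 have 64 to 90 CpGs, where the median of the green outline is 17.

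Other genes methylated in colorectal cancer were placed in the same way, from a list of 30 further markers. Of these, 7 lay in H3K27me3 domains of Clone 3, 9 in those of Clone 6 and 6 in both, against 6.44%, 7.97% and 5.32% of all genes. The 6 were *PENK*, the proenkephalin gene, *GATA4*, a transcription factor gene, *THBD*, the gene of thrombomodulin, and *CNRIP1*, *PHACTR3* and *FOXI2*. *SST*, the gene of somatostatin, was inside in Clone 3 alone and 1140 kb away in Clone 6. *ALX4*, *INA* and *SPART* were inside in Clone 6 alone, at 69.9, 1081 and 285 kb from the Clone 3 domains. Bodies but not start sites touched the domains at *BCAT1* (32.3% of the body) and *SLIT2* (91.3%) in Clone 3 and at *GATA5* (68.0%) and *MAL* (49.4%) in Clone 6, and bodies touched domains at 8.68% and 10.3% of all genes in the 2 clones. The shares of start sites, 23.3% in Clone 3, 30.0% in Clone 6 and 20.0% in both, lie between those of the 10 markers and of all genes. This list too was chosen with earlier results of these data known.

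The 7 genes besides *CDKN2A* of a panel for the CpG island methylator phenotype, a class of colorectal tumours with methylation of many islands, gave 0 in Clone 3 and 1 in Clone 6, counts that with 7 genes are near the 6.44% and 7.97% of all genes. That gene was *NEUROG1*, a neuronal transcription factor gene, in a Clone 6 domain of 32 kb and 39.0 kb from the nearest Clone 3 domain. The other 6 lay outside in both clones, between 82.4 kb (*IGF2*) and 904 kb (*CACNA1G*) from the Clone 3 domains.

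Of 41 relatives of the 10 genes, 1 lay in H3K27me3 in Clone 3 and 1 in Clone 6, which is 2.44% in each and, with 41 genes, near the 6.44% and 7.97% of all genes. *BMP5*, of the same ligand family as *BMP3*, was in a Clone 3 domain of 158 kb. *EYA2*, a paralogue of *EYA4*, was in a Clone 6 domain of 276 kb and 0.376 kb outside a Clone 3 domain that covered 12.9% of its body. *EYA1* and *BMP2* were in H3K9me3 in both H3K9me3 sets, in domains of 792 and 1332 kb. These 2 of 41 (4.88%) are near the shares of all genes, 3.35% in Clone 3 and 3.24% in the clone-shared set. None of *SDC1*, *SDC3*, *SDC4*, *TAC3*, *TAC4*, *TIMP1*, *TIMP2* and *TIMP4*, the relatives of the other 3 genes inside, lay in a domain of any set.

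Domains do not report expression, so the cell type could be set against its markers only by their position. None of 11 epithelial marker genes (*CDX1*, *CDX2*, *EPCAM*, *CDH1*, *KRT8*, *KRT18*, *KRT19*, *KRT20*, *VIL1*, *LGR5* and *GPA33*) and none of 9 markers of blood, endothelium, fibroblasts and liver lay in a domain of any set. With between 3.24% and 7.97% of all genes in the sets, lists of this size are near the background at 0, and nothing about the cell type is read from them.

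**Figure D5:**
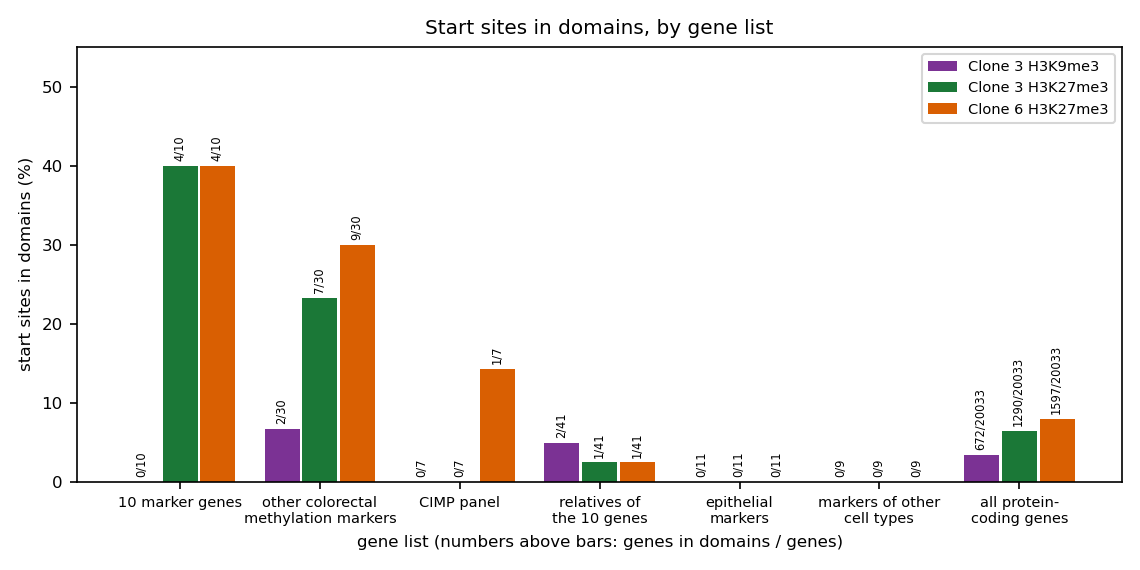
Start sites in domains by gene list. Bars give the percentage of each list with start sites in Clone 3 H3K9me3, Clone 3 H3K27me3 and Clone 6 H3K27me3 domains, from 0, with the number of genes in domains over the number of genes above each bar. The 10 marker genes are at 40.0% for H3K27me3 in both clones, above the 30 other markers (23.3% and 30.0%) and all protein-coding genes (6.44% and 7.97%), with no test made. The lists were chosen with earlier results of these data known.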

How the data were processed

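ChIP-seq of H3K9me3 and H3K27me3 was performed in 7 samples, grouped by clone and mark from their labels. The authors trimmed reads (Trim Galore 0.5.0, per the submitters' notes), aligned them to hg38 (Bowtie2 2.3.5), discarded duplicate reads using samblaster, and ran Enriched Domain Detector with its default settings to find domains. They kept coordinates found in both replicates and then in both clones, so the deposited sets are merged over samples. The deposited columns are start and end positions in whole kb and, in the 3 clone sets, 2 unnamed scores. The score of a domain, as the authors gave it, only ranked domains within a set. The study states a minimum sequencing depth for its libraries, and the depth of each library was not used here.

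Start sites and bodies of 20033 GENCODE 44 genes were intersected with each set in Python 3.11.15 (numpy 2.4.6, pandas 2.3.3), and figures drawn with matplotlib 3.10.9. Distance is 0 inside a domain and otherwise runs to the nearest edge. One upstream window is not reported here. CpGs were counted in hg38 within 500 bases of a start site. The interval code was tested on simulated data. The members and lists were chosen with earlier results of these data known. All 10 genes were named, with those list genes whose start site or body lay in a domain, relatives a result turned on and, at most 5, coding genes starting in the same domain. Alternatives were the canonical or any coding start, 1 kb around the start, domains of at least 100 kb, domains up to 50 kb apart joined, the upper 50% of domains by the lower score, at least 50% of the body, and backgrounds of CpG-rich promoters or autosomes.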

Additional observations from a re-analysis of the deposited data

How the results depend on the processing

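The 47 recomputed counts of start sites, bodies and agreeing genes stayed within 1.5 times the reported count. With the canonical start, any coding start, 1 kb around the start, or domains up to 50 kb apart joined, *EYA4* raised the Clone 3 H3K27me3 count of start sites from 4 to 5. *BMP3*, *SDC2*, *TAC1* and *TIMP3* remained inside H3K27me3 in both clones under each alternative, domains of at least 100 kb and the upper 50% by score included. Of 100 recomputed distances 20 moved by more than 1 kb, which does not count *EYA4* in Clone 3 H3K27me3 (0.486 kb to inside, with the canonical start). The largest shifts were those of *NDRG4* (297 to 2183 kb) and *SEPTIN9* (255 to 1869 kb), both in Clone 3 with domains of at least 100 kb, since their nearest Clone 3 domains were shorter. In Clone 6 that setting moved neither distance. The background shares fell with CpG-rich promoters, to 2.81% and 2.70% for H3K9me3 in Clone 3 and the clone-shared set, and changed little on autosomes alone (6.49% and 7.98% for H3K27me3 in Clone 3 and Clone 6). No paired analysis was possible because the sets were merged over replicates, and leaving out a replicate could not be run for the same reason. With 10 genes, 1 gene moves a share by 10 percentage points.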

Other observations

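Of the 30 further colorectal markers, 2 (6.67%) lay in H3K9me3 domains of Clone 3 and 1 (3.33%) in the clone-shared set, against 3.35% and 3.24% of all genes. *MGMT*, the gene of a DNA repair enzyme, started in a domain of 604 kb that covered 33.2% of its body in both H3K9me3 sets, and lay 3.19 kb from a Clone 6 H3K27me3 domain and 282 kb from the nearest of Clone 3. *SPART* started in a Clone 3 H3K9me3 domain of 559 kb (36013001 to 36572000 on chromosome 13) and in a Clone 6 H3K27me3 domain of 794 kb (36020001 to 36814000), and it was in neither clone-shared set. The H3K9me3 state of *SPART* in Clone 6 alone was not analysed here.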
